A study of Homo sapiens with 12 samples.

Results

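The members described are the FET proteins and abundant heterogeneous nuclear ribonucleoproteins (hnRNPs) in A2780 cells, a human ovarian carcinoma line, across 9 genes: TAF15, EWSR1, HNRNPA1, HNRNPA2B1, HNRNPC, HNRNPD, HNRNPK, HNRNPL and HNRNPU. Members were all probes annotated to 1 of these symbols, current or older, and to no other gene. This gave 40 of 54613 probe sets on the Affymetrix array (AFFX) and 17 of 33096 probes on the Applied Biosystems array (ABI), for 9 of the 19775 genes with a single-gene probe set on AFFX and of the 17191 with a single-gene probe on ABI. Another 2 AFFX probe sets were annotated to HNRNPA1 together with other genes and were left out. The treated cells received 3 µM of an unnamed cell cycle inhibitor for 6 h, and the control cells were left untreated. Each condition was 1 pool of RNA from replicate cultures, split into aliquots for 3 arrays per platform, 12 arrays in all, so every p-value below measures the spread between arrays of 1 pool and not between cultures. Only attached cells were collected.

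FET proteins bind both RNA and DNA and associate with RNA polymerase II and the splicing machinery. The hnRNPs coat nascent pre-mRNA in the nucleus, where they influence which exons are kept, and several of them also act on export, stability and translation of the mRNA. Most are among the most abundant RNA-binding proteins of dividing cells. Many of their pre-mRNAs are processed into several forms, and a probe reads only the stretch of transcript it was designed against.

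AFFX values are log2 signals and ABI values are log2 of the deposited linear signal. Changes are log2(Fold Change), treated minus control, and a probe was called when limma's Benjamini-Hochberg adjusted p over all probes of its platform was under 0.05 and the change was at least 1.5-fold. In bulk RNA, fewer cells expressing a transcript and less of it per cell cannot be told apart. The median signal of an array was 5.37 to 5.47 (log2) on AFFX and 1.06 to 1.19 linear units on ABI. The median change of all probes was 0.12 on AFFX and 0.16 on ABI, and the median residual SD between arrays was 0.116 on AFFX and 0.360 on ABI (log2). Neither platform's values came with detection calls. Of the 8 markers of an epithelial carcinoma line, 8 had a single-gene AFFX probe set and 7 a single-gene ABI probe. Their control signals were set against the platform median, taken over all probes and arrays. KRT8 and KRT18 were above it on both platforms, PAX8 on AFFX only and MUC16 on ABI only. EPCAM, CDH1, KRT19 and WT1 were above it on neither. Of the 10 leukocyte markers, 7 had a single-gene AFFX probe set. Their median signal was 4.91 in treated cells (range 4.37 to 6.10) and 4.81 in control cells (3.98 to 5.72). CD2, CD3D and CD3E were above the platform median in control cells. The leukocyte median is used below as a mark of low signal and is not a detection limit. Some fibroblast and endothelial markers were high, reaching 12.28 in treated and 12.23 in control cells on AFFX and 7.85 in treated and 7.65 in control cells on ABI. The part of marker levels in the results below was not tested.

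TAF15 had 1 of its 4 AFFX probe sets and its single ABI probe called higher in treated cells, while the other 3 AFFX sets were not called and the ABI call did not hold when any single array was left out. HNRNPA1 was called lower on all 3 of its single-gene AFFX probe sets and on none of its 3 ABI probes. HNRNPA2B1 and HNRNPD each had AFFX probe sets called lower beside others that were not. HNRNPC had 1 AFFX probe set called higher. EWSR1, HNRNPK, HNRNPL and HNRNPU had no called probe on either platform. In all, 6 of the 40 AFFX probe sets were called lower, from 3 genes, against 8.95% of all AFFX probe sets. Another 3 were called higher, also from 3 genes, against 1.75% of all. On ABI, 0 of 17 probes were called lower, against 10.1% of all ABI probes, and 1 was called higher, against 7.71%. The members' median change was 0.05 on AFFX and 0.32 on ABI.

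**Figure D1:**
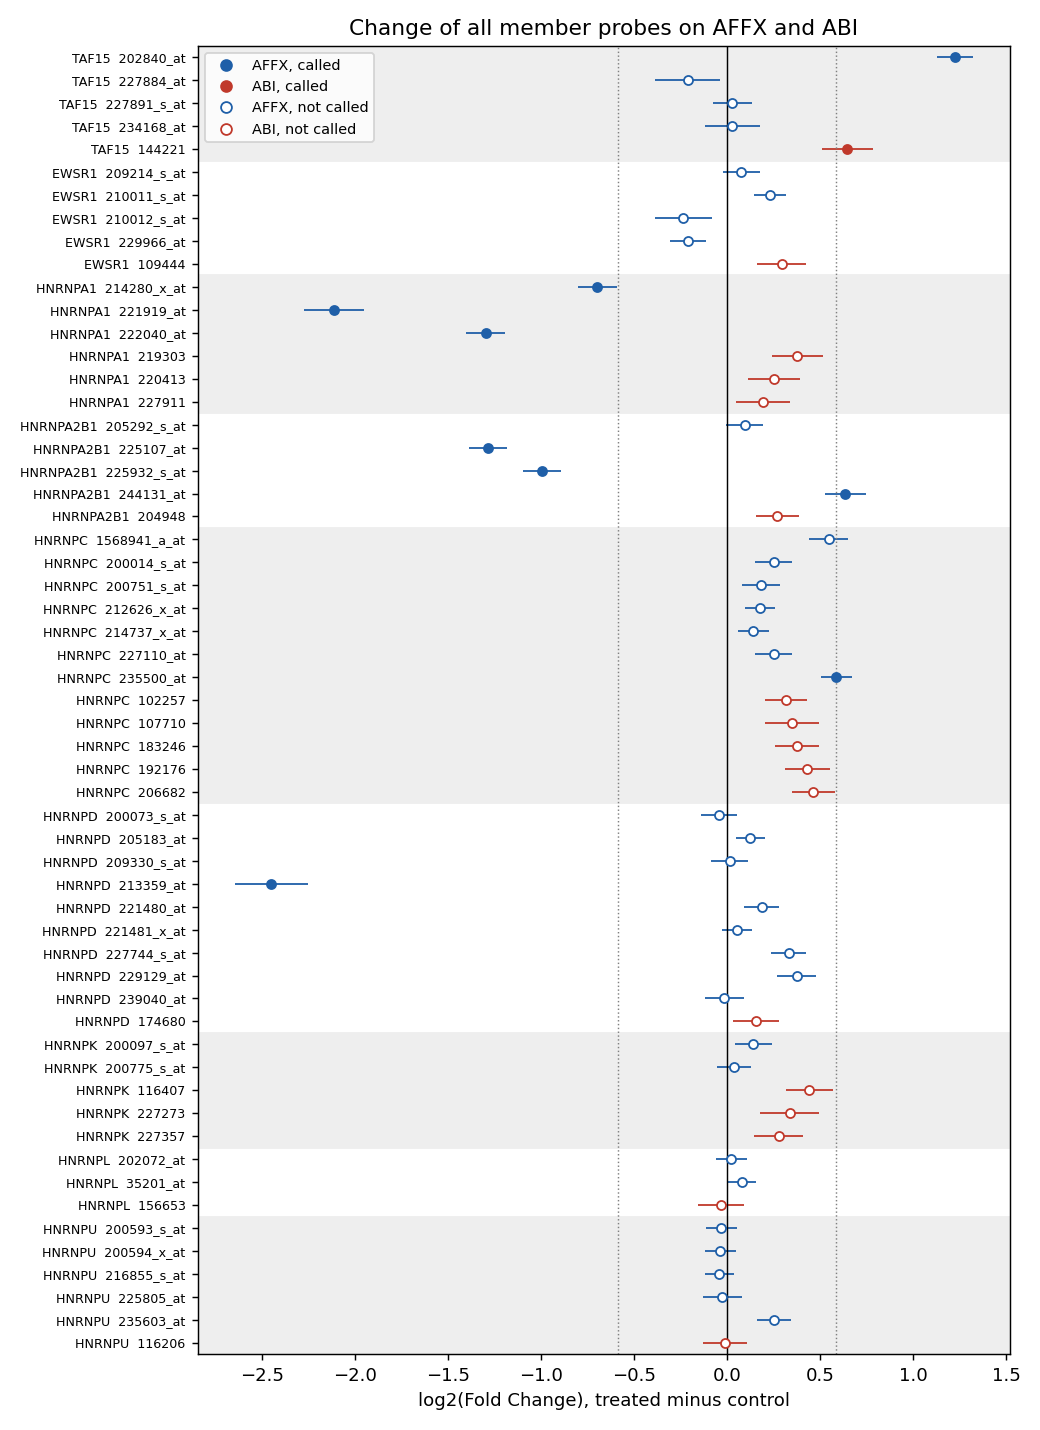
Change of each of the 57 member probes, grouped by gene. The horizontal axis is log2(Fold Change), treated minus control, points are the fitted change, bars are its SE (3 arrays a group), filled points were called and dotted lines mark 1.5-fold. The called points to the left are all AFFX probe sets of HNRNPA1, HNRNPA2B1 and HNRNPD, and TAF15 has the only called ABI probe.

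TAF15 encodes a FET protein first known as a factor associated with the general transcription factor TFIID. Its AFFX probe set 202840_at had signals of 9.58, 9.58 and 9.48 in treated cells, against 8.44, 8.15 and 8.38 in control cells. The groups did not overlap, and every treated array was more than 1 log2 unit above every control array. The change was 1.23 ± 0.0956 (SE, n = 3 arrays a group), 2.34-fold, with an adjusted p of 2.661e-06 by limma. The single ABI probe, 144221, had log2 signals of 6.52, 6.62 and 6.76 in treated cells, against 6.10, 5.86 and 5.99 in control cells. Its groups were also apart, by less than on AFFX. Here the change was 0.65 ± 0.137 (SE), 1.57-fold, with an adjusted p of 0.02754 by limma. That ABI call was lost when any 1 of the 6 arrays was left out, with an adjusted p between 0.05371 and 0.09367, and under other scalings given in the closing section, while 202840_at was called under each alternative run. The other 3 AFFX probe sets of TAF15 did not follow 202840_at: 227891_s_at changed by 0.03 (95% CI -0.20 to 0.26), 234168_at by 0.03 (-0.30 to 0.36) and 227884_at by -0.21 (-0.60 to 0.17). 234168_at lay below the leukocyte marker median in both conditions, and 227884_at did so in treated cells. 227891_s_at did not, with 7.44, 7.43 and 7.26 in treated cells and 7.48, 7.42 and 7.15 in control cells, which overlapped.

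EWSR1, the FET gene whose fusions drive Ewing sarcoma, showed no called change. Its 4 AFFX probe sets changed by between -0.23 and 0.23. Among them 209214_s_at had 10.79, 10.93 and 10.67 in treated cells and 10.88, 10.61 and 10.66 in control cells, and these overlapped (change 0.08, 95% CI -0.15 to 0.30). On AFFX the lowest adjusted p was that of 210011_s_at, at 0.23 ± 0.0868 (SE) with an adjusted p of 0.0579 by limma, and its treated arrays (9.73, 9.58 and 9.67) lay above its control arrays (9.48, 9.32 and 9.48). The ABI probe 109444 changed by 0.29 (95% CI -0.04 to 0.63, adjusted p 0.1877). The 18 hybridisation control sets of AFFX had a mean change of 0.42. With AFFX arrays centred on them, 210012_s_at and 229966_at were called lower, as was 227884_at of TAF15. Of these, 210012_s_at, the set with the change of -0.23, lay below the leukocyte marker median in both conditions. 227884_at lay below it in treated cells.

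HNRNPA1 encodes a shuttling hnRNP with RNA recognition motifs that represses the use of many splice sites. On AFFX all 3 of its single-gene probe sets fell, by amounts that differed from each other. 221919_at had 5.48, 5.72 and 5.37 in treated cells, against 7.49, 8.06 and 7.37 in control cells. It changed by -2.12 ± 0.162 (SE), or 4.33-fold lower, with an adjusted p of 2.269e-06 by limma. Its treated signals lay within the range of the leukocyte markers in treated cells (4.37 to 6.10). The size of its fall, and of differences fitted from it, is therefore uncertain. 222040_at had 6.31, 6.17 and 6.56 in treated cells, against 7.71, 7.64 and 7.58 in control cells, a change of -1.30 ± 0.106 (SE), 2.46-fold lower, adjusted p 3.962e-06. For both sets every treated array was at least 1 log2 unit below every control array. 214280_x_at had 10.05, 9.95 and 9.69 in treated cells and 10.68, 10.50 and 10.60 in control cells. It changed by -0.70 ± 0.106 (SE), 1.62-fold lower, adjusted p 0.0004833, without overlap. Its suffix marks probes that can match more than 1 transcript, so its signal may include copies of the gene and its size is uncertain. On ABI the 3 HNRNPA1 probes lay on the other side of 0: 219303 at 0.38 (95% CI 0.04 to 0.72), 220413 at 0.25 (-0.09 to 0.60) and 227911 at 0.19 (-0.17 to 0.55), with adjusted p of 0.1106, 0.2647 and 0.4088. None was called, and with ABI arrays centred on ribosomal protein probes all 3 changes were below 0, between -0.35 and -0.17. For 219303 the treated arrays (6.33, 6.26 and 6.21) were above the control arrays (6.07, 5.85 and 5.76), and for 220413 and 227911 the groups overlapped.

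**Figure D2:**
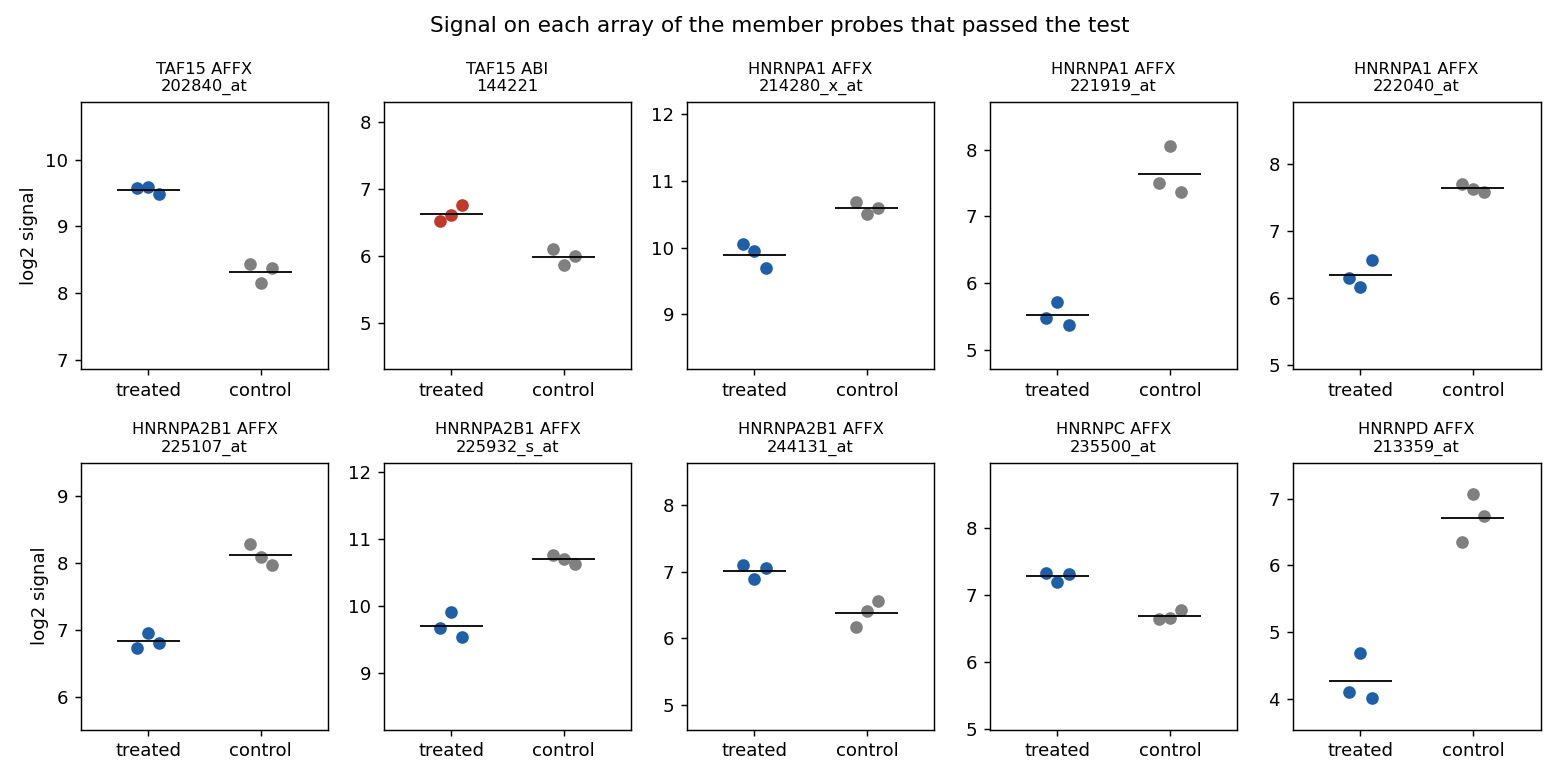
Log2 signal on each array (points) of the 10 member probes that were called, treated beside control, with the group mean as a line; every vertical axis spans 4 log2 units, but signals of different probes are not comparable. In each panel the 3 treated arrays lie wholly above or wholly below the 3 control arrays.

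HNRNPA2B1 produces the splicing regulators hnRNP A2 and B1, which differ by a short alternative exon. Its 4 AFFX probe sets did not all change alike. 205292_s_at had 12.19, 12.35 and 12.10 in treated cells and 12.25, 12.09 and 12.01 in control cells, which overlapped, and its change was 0.09 (95% CI -0.12 to 0.31). 225107_at had 6.73, 6.95 and 6.81 in treated cells, against 8.28, 8.10 and 7.97 in control cells, and 225932_s_at had 9.67, 9.90 and 9.53 in treated cells, against 10.76, 10.70 and 10.63 in control cells. Neither overlapped. They changed by -1.29 ± 0.101 (SE), 2.44-fold lower with adjusted p 2.856e-06 by limma, and by -0.99 ± 0.104 (SE), 1.99-fold lower with adjusted p 2.778e-05. 244131_at went the other way, with 7.10, 6.89 and 7.05 in treated cells, against 6.16, 6.41 and 6.55 in control cells. It was 1.55-fold higher, at 0.63 ± 0.110 (SE), adjusted p 0.001221, and its call was lost when the arrays were centred on their median, on ribosomal protein probes or on hybridisation controls, and without control array 1 (0.53). In these it stayed above 0, at 0.22 with hybridisation controls. The ABI probe 204948 read 9.48, 9.56 and 9.65 in treated cells and 9.33, 9.28 and 9.27 in control cells, a difference of 0.27 (95% CI -0.02 to 0.56, adjusted p 0.1652) that was not called although the groups did not overlap.

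HNRNPC forms the core of hnRNP particles and binds runs of uridine in introns. Of its 12 probes 1 was called, and all 12 had positive changes in the deposited scaling, but 5 of the 7 AFFX sets were below 0 with arrays centred on hybridisation controls, 1 of 7 with ribosomal protein probes, and all 5 ABI probes with ribosomal protein centring or quantile normalization. AFFX 235500_at had 7.33, 7.20 and 7.32 in treated cells, against 6.64, 6.66 and 6.78 in control cells, with no overlap. The change was 0.59 ± 0.0844 (SE), 1.5-fold, just at the fold limit, with an adjusted p of 0.0003309 by limma. Its call was lost in 8 of 15 alternatives, among them those without treated array 1 (change 0.57), treated array 3 (0.57), control array 1 (0.56) and control array 2 (0.57), all under the fold limit. 1568941_a_at had a change of 0.55 (95% CI 0.32 to 0.78, adjusted p 0.002245), under the fold limit, but its signals of 3.41, 3.47 and 3.55 in treated and 3.08, 2.71 and 3.00 in control cells lay below the leukocyte marker median. The other 5 AFFX sets had changes between 0.14 and 0.25. On ABI the 5 probes had changes between 0.32 and 0.46, each with non-overlapping groups, and 206682 alone had an adjusted p under the threshold (0.04093) at a change of 0.46 ± 0.114 (SE), below the fold limit. Against the median change over all probes, 0.12 on AFFX and 0.16 on ABI, the HNRNPC medians were 0.25 and 0.38.

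HNRNPD, also known as AUF1, binds AU-rich elements in mRNAs and takes part in their decay. One of its 9 AFFX probe sets had the greatest change of all 57 member probes. 213359_at had 4.11, 4.68 and 4.01 in treated cells, against 6.35, 7.06 and 6.74 in control cells. The control arrays were all above the treated arrays by more than 1 log2 unit, at -2.45 ± 0.195 (SE), 5.46-fold lower, with an adjusted p of 3.096e-06 by limma. The treated mean of 4.27 lies below the leukocyte marker median of 4.91, so the size of the fall is uncertain. The other 8 sets had changes between -0.04 and 0.37. Of these, 200073_s_at and 221481_x_at had changes of -0.04 (95% CI -0.26 to 0.17) and 0.06 (-0.12 to 0.23), with overlapping arrays. 229129_at (0.37, adjusted p 0.0168) and 227744_s_at (0.33, adjusted p 0.0189) passed the p threshold but not the fold limit. The ABI probe 174680 had 8.17, 8.16 and 8.29 in treated cells and 8.17, 7.97 and 8.02 in control cells, which overlapped, and changed by 0.15 (95% CI -0.16 to 0.47).

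**Figure D3:**
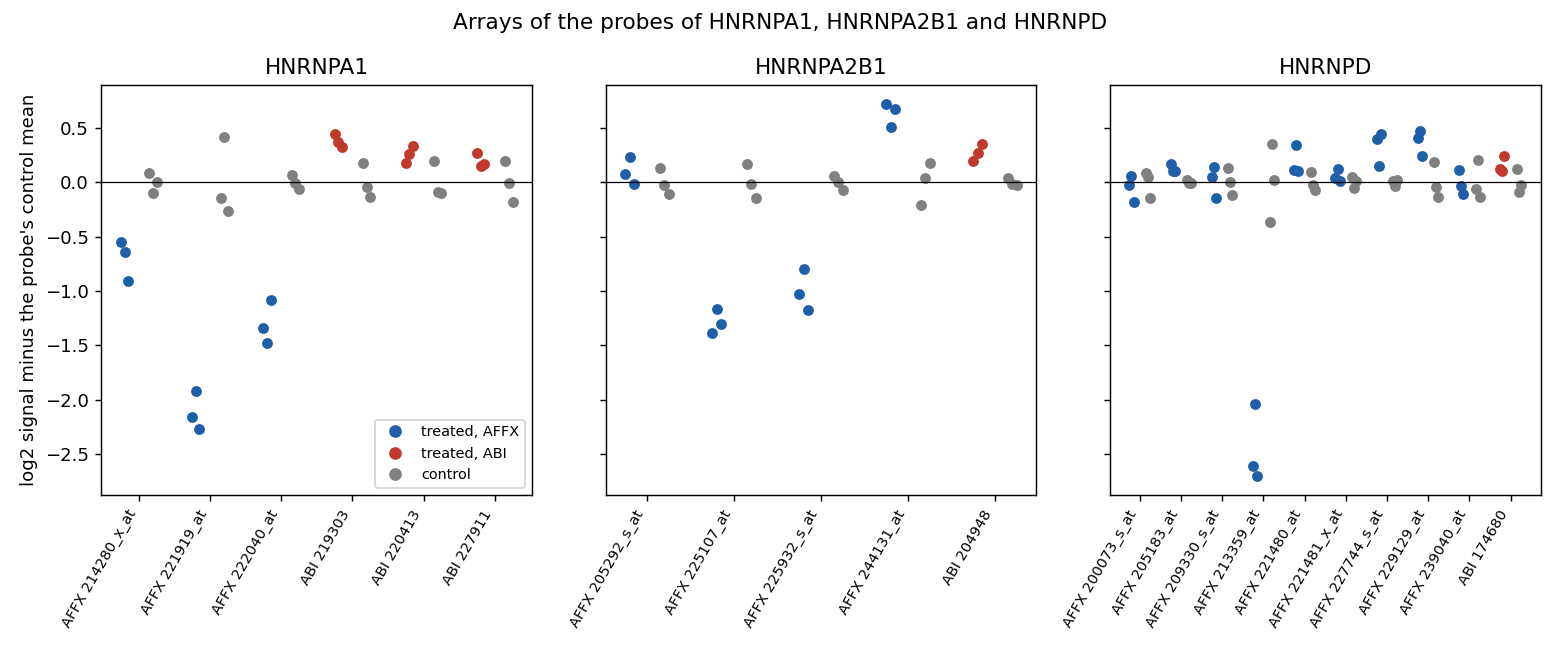
Signal of each array relative to the probe's own control mean (log2 units, vertical axis) for every probe of HNRNPA1, HNRNPA2B1 and HNRNPD, with treated arrays left of control arrays at each probe. The called falls are those of the 3 AFFX probe sets of HNRNPA1, 2 of the 4 of HNRNPA2B1 and 1 of the 9 of HNRNPD, and the treated ABI arrays lie above 0 in the deposited scaling.

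The 3 remaining hnRNPs had no called probe. HNRNPK, a KH-domain protein that binds poly(C) RNA and DNA, had AFFX changes of 0.14 (200097_s_at, 95% CI -0.08 to 0.36) and 0.04 (200775_s_at, -0.16 to 0.24). Its 3 ABI probes had changes between 0.28 and 0.44, and 116407 came nearest, with 8.78, 8.86 and 8.94 in treated cells and 8.47, 8.30 and 8.49 in control cells (0.44 ± 0.125 SE, adjusted p 0.0588 by limma). HNRNPL, which binds CA repeats and regulates splicing, had AFFX changes of 0.02 (202072_at, 95% CI -0.16 to 0.21) and 0.08 (35201_at, -0.09 to 0.25) and an ABI change of -0.03 (156653, -0.33 to 0.27). HNRNPU, the scaffold attachment factor of chromatin, had 4 AFFX sets between -0.04 and -0.03, none called, and the fifth, 235603_at, at 0.25 ± 0.0916 (SE, adjusted p 0.0484), under the fold limit. The ABI probe 116206 changed by -0.01 (95% CI -0.31 to 0.29). Over all 31 uncalled AFFX probe sets, the 95% CI lay within 1.5-fold in 28, and over the 16 uncalled ABI probes in 5, so ABI could not bound most members that closely.

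The treated and control arrays did not overlap for 6 AFFX member probe sets on the lower side and 13 on the higher side, against 17.5% and 34% of all AFFX probe sets. On ABI 0 of 17 members were wholly lower and 12 were wholly higher, against 17.1% and 23.8% of all ABI probes. A positive change was found for 15 of the 17 ABI probes (88.2%, against 59.8% of all). This sign depends on the scaling: the 130 ribosomal protein probes of ABI had a mean change of 0.55, and with arrays centred on them 14 of the 16 uncalled members turned sign, as did 11 with quantile normalization. On AFFX the 121 ribosomal protein probe sets had a mean change of 0.16.

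Probe sets of 1 gene on the same array were compared directly, which does not depend on the array's scaling. Of 90 pairs of AFFX probe sets of 1 member gene, 18 differed in change by at least 1.5-fold with an adjusted p under 0.05, against 16.8% of the 42435 such pairs of all genes. These 18 came from 4 genes: 3 of 3 pairs of HNRNPA1, 4 of 6 of HNRNPA2B1, 3 of 6 of TAF15 and 8 of 36 of HNRNPD. For TAF15 all 3 involved 202840_at, whose change exceeded that of 227891_s_at by 1.2 ± 0.136 (SE, adjusted p 6.938e-05 by limma). The remaining called TAF15 pairs are of uncertain size. They held 234168_at, below the leukocyte marker median in both conditions, and 227884_at, below it in treated cells. For HNRNPA2B1, 205292_s_at changed by 1.38 ± 0.108 (SE) more than 225107_at (adjusted p 5.055e-06 by limma). 225107_at and 244131_at differed by -1.92 ± 0.179 (SE, adjusted p 1.717e-05). 205292_s_at and 244131_at differed by -0.54 (adjusted p 0.03969), under the fold limit, and were not called. For HNRNPA1, the falls of 221919_at and 222040_at differed by -0.82 ± 0.211 (SE, adjusted p 0.01406). All 8 pairs of HNRNPD held 213359_at, with differences in change fitted between 5.30-fold and 7.08-fold. These sizes are uncertain, because signals lay below the leukocyte marker median for 213359_at in treated cells, for 227744_s_at in control cells and for 239040_at in both. EWSR1, HNRNPC, HNRNPK, HNRNPL and HNRNPU had 0 called pairs of 39, and the lowest adjusted p among them was 0.009848, for 210011_s_at and 229966_at of EWSR1, under the fold limit. Genes with both a lower and an uncalled probe set were common on AFFX, at 17.5% of the 10523 genes that had 2 or more single-gene sets.

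The change was then compared between the platforms, as a treatment by platform interaction over every pair of an AFFX probe set and an ABI probe of 1 gene. Unlike the pairs within AFFX, this comparison depends on the scaling of each platform. Ribosomal protein probes had mean changes of 0.16 on AFFX and 0.55 on ABI, and the interaction was not refitted with arrays centred on them. Of 78 member pairs, 10 differed, against 9.72% of the 46867 pairs of all genes: 7 of 9 of HNRNPA1, 2 of 4 of HNRNPA2B1 and 1 of 9 of HNRNPD. In each the AFFX change lay below the ABI change. For HNRNPA1, 222040_at against 219303 differed by -1.68 ± 0.290 (SE, adjusted p 0.003401 by limma) and 221919_at against 219303 by -2.49 ± 0.478 (adjusted p 0.006249). For HNRNPA2B1 225107_at against 204948 the difference was -1.56 ± 0.267 (adjusted p 0.003216), and for HNRNPD 213359_at against 174680 the fitted difference was -2.61 ± 0.584 (adjusted p 0.01494), of uncertain size since 213359_at lay below the leukocyte marker median in treated cells. The higher TAF15 change on AFFX 202840_at than on ABI 144221 was not called, at 0.58 (95% CI 0.03 to 1.13, adjusted p 0.1874). In HNRNPC, HNRNPK, HNRNPL, HNRNPU and EWSR1, 0 pairs of 52 were called, with 95% CIs that reached as low as -1.5 and as high as 0.84, so differences past 1.5-fold were not bounded in all of them. A fit with separate variances per platform, added after the data were seen, called the same 10 member pairs and 4 more, 2 each of HNRNPA1 and TAF15. The 2 TAF15 pairs were 227884_at (-0.86) and 227891_s_at (-0.62) against 144221, with the AFFX change below the ABI change. The pair of 202840_at was not among them.

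**Figure D4:**
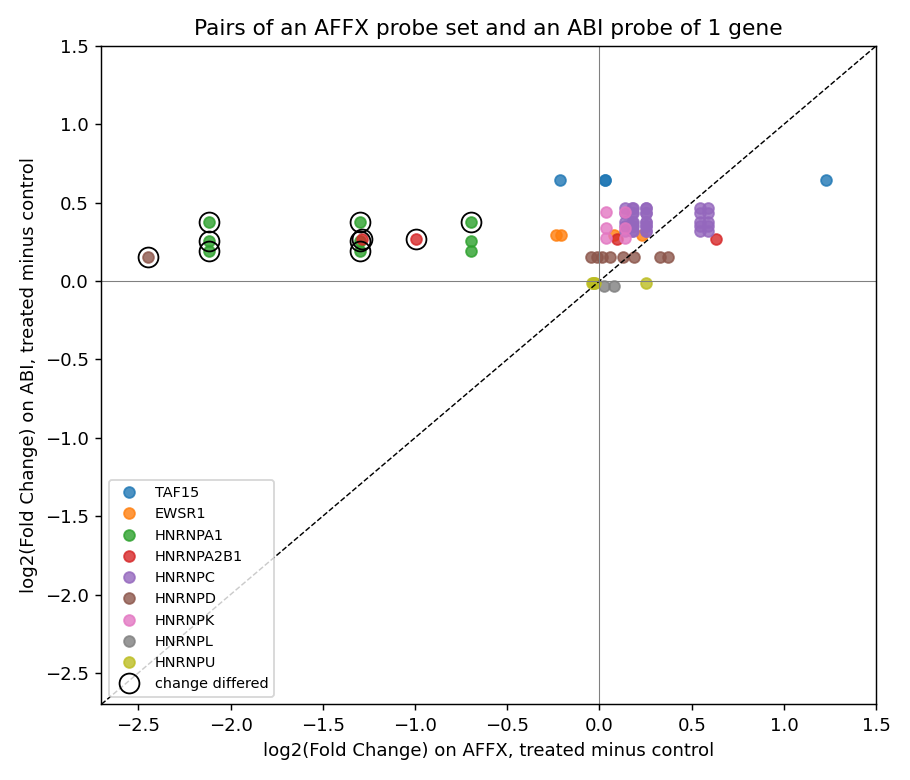
Change on AFFX (horizontal) against change on ABI (vertical), both log2(Fold Change), treated minus control, for the 78 pairs of an AFFX probe set and an ABI probe of 1 member gene; the dashed line marks equal change and rings mark the 10 pairs whose change differed. The ringed pairs are of HNRNPA1, HNRNPA2B1 and HNRNPD, with AFFX changes below 0 and, in the deposited scaling, ABI changes above 0.

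By the kind of sequence each AFFX set was designed against, 3 of the 14 member sets made from expressed sequence tags were lower, 1 of 13 made from cDNA, 0 of 6 made from RefSeq entries and 2 of 7 without an accession. Over all probe sets of these kinds, 12.3%, 7.31%, 11.6% and 5.84% were lower, in the same order.

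In the wider family list (other hnRNPs, PCBP and PTBP proteins, paraspeckle proteins, and import and arginine methylation partners), 30 of the 31 listed genes had single-gene AFFX sets. Of 111 AFFX probe sets 5 were called lower (4.5%, against 8.95% of all) and 4 higher (3.6%, against 1.75%). Of 41 ABI probes 1 was called lower and 1 higher (2.44% each, against 10.1% and 7.71% of all). The one gene of this list called on both platforms was PCBP1, which encodes a poly(C)-binding protein of the KH family. Its AFFX set 208620_at had 9.94, 10.06 and 9.89 in treated cells, against 10.94, 10.84 and 10.81 in control cells, 1.86-fold lower with an adjusted p of 1.375e-05 by limma. Its ABI probe 105530 had 3.22, 3.19 and 3.26 in treated cells, against 4.46, 4.26 and 4.38 in control cells, 2.21-fold lower with an adjusted p of 0.003241. No array of one condition overlapped the other on either platform.

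The pattern most like HNRNPD, the member with the greatest AFFX change, was sought with its probe of highest mean signal on each platform (221481_x_at and 174680), which is not the set that fell. Over the 12 arrays, centred and scaled within platform, the nearest of 16185 genes were LYG2 (Pearson r 0.966), DDX46 (0.954) and SMARCA4 (0.953). These are descriptions, since the points share 2 RNA pools. Neither HNRNPD probe was called, at changes of 0.06 (221481_x_at) and 0.15 (174680). The 3 genes were picked as the highest r of 16185, and the size of r was not tested.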

How the data were processed

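A2780 RNA, 1 pool per condition, was hybridised to 3 AFFX and 3 ABI arrays. The AFFX values deposited by the authors are log2 signals from RMA with quantile normalization, and the ABI values deposited by the authors are linear signal intensities after global median normalization, used here as log2; software versions are not given in the sources used here. Log base and scale were read from the value ranges. Probes were named through GEO's platform annotation, updated to current symbols: 41091 AFFX sets and 21089 ABI probes had 1 gene, 1801 and 563 had several, 11721 and 11444 had none. The 62 AFFX control sets were set aside. No genome coordinates or probe sequences were used here.

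Treated minus control was fitted with limma 3.58.1 in R 4.3.3 (lmFit, eBayes) on each platform, over all probes, without a block. Pairs of probe sets of 1 gene were fitted as per-array differences. AFFX and ABI were fitted together as an interaction, with arrays weighted by the inverse of their platform's median residual variance. The named genes are all single-gene probes of the 9 members, with family genes named only when called on both platforms. Members and lists were chosen with earlier results of these data known. Alternatives were other scalings, call limits, tests, a dim-probe filter and leaving out arrays. The fits were tested on simulated data. A fit of the interaction with separate variances per platform was added after the data were seen. The number of arrays limits the precision.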

Additional observations from a re-analysis of the deposited data

Results flagged for a closer look

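The change differed between the platforms in 10 of 78 member pairs of probes, by the test of the treatment by platform interaction. Over all genes, 9.72% of 46867 pairs differed by that test. The 10 pairs share probes, so they are not separate observations. Both platforms measured aliquots of the same RNA pools. The differences are in the deposited scaling, on which their size depends. The differences (AFFX change minus ABI change, log2) for HNRNPA1 were -1.08 for 214280_x_at against 219303, -2.49, -2.37 and -2.31 for 221919_at against 219303, 220413 and 227911, and -1.68, -1.55 and -1.49 for 222040_at against the same 3 probes. For HNRNPA2B1 they were -1.56 for 225107_at and -1.26 for 225932_s_at against 204948, and for HNRNPD -2.61 for 213359_at against 174680, of uncertain size because 213359_at lay below the leukocyte marker median in treated cells. On ABI the 5 probes of these genes had changes between 0.15 and 0.38, none called.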

How the results depend on the processing

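The 6 member probe sets called lower on AFFX stayed at 6 under the replicate block and without each array in turn (6 to 6), and were 9 with hybridisation controls and 4 at 2-fold. Of 150 values for the 10 called probes under single alternatives, 125 kept direction and call, 25 kept direction but lost the call and 0 reversed. A reversal was possible only under another scaling or without an array, because the other alternatives leave the fitted change as it was. With no fold limit a call could not be lost. The 3 AFFX calls of a rise became 1 with arrays centred on their median, on ribosomal protein probes or on hybridisation controls and at 2-fold, and 7 with no fold limit, with 2 to 3 when 1 array was left out. The 1 ABI call of a rise, TAF15 144221, became 0 under the replicate block (adjusted p 0.09179), ribosomal protein centring (change 0.10), quantile normalization (0.51, under the fold limit), at 2-fold and without each array (0 to 0), and 2 with no fold limit; 0 were lower without any array (0 to 0). In the family list the 5 AFFX calls of a fall became 22 and the 4 of a rise became 2 with hybridisation controls, with 4 to 6 and 3 to 5 when 1 array was left out. On ABI the 1 fall became 13 with ribosomal protein centring and 3 with quantile normalization, and the 1 rise became 0 under the replicate block and under ribosomal protein centring, with 1 to 1 each when 1 array was left out. Called pairs within a gene were 16 to 19 when 1 array was left out, 18 with the block and 27 with no fold limit, against 18. Called pairs between platforms were 9 to 12 when 1 array was left out, 12 with quantile normalized ABI values, 13 without platform weights and 14 with separate variances, against 10. The cause of these moves was not tested.

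Scaling moved the median change of all probes from 0.12 to -0.30 on AFFX (hybridisation controls) and from 0.16 to -0.38 on ABI (ribosomal protein probes), and falls made up 83.6% of AFFX calls as deposited, 96.6% with ribosomal protein and 99.2% with hybridisation control centring, and 56.7% of ABI calls as deposited, against 96.6% with ribosomal protein centring. Deviations from the group mean in same-numbered treated and control arrays correlated at 0.07, 0.00 and 0.33 on AFFX. On ABI they correlated at 0.03, -0.01 and 0.07, which shows little pairing. Differently numbered AFFX arrays ranged from -0.34 (treated 3 with control 1) to 0.32 (treated 2 with control 1). Whether the replicate numbers pair the AFFX arrays was therefore not settled. Changes within 1 pool say nothing of the spread between cultures, and 4 AFFX member sets lay below the leukocyte marker median in both conditions, 3 in 1 condition.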
